A study of Mus musculus with 2 samples.

Results

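Amino acid transporter genes of the solute carrier families SLC1, SLC3, SLC6, SLC7, SLC15, SLC36, SLC38 and SLC43 were compared between granulocytes and monocytes sorted from mouse bone marrow. They were chosen by gene name alone: 60 genes, read by 102 probes, carried a name of these families in the array files. A gene was counted when its signal was well above background on either array, as flagged by the scanner software. This left 44 genes, out of 15612 named genes that met the same condition. The cells came from wild-type male C57BL/6 mice and neither group was treated. The label of the granulocyte sample names no surface markers, nor does that of the monocyte sample, and neither states how many mice were used or how old they were. Each cell type was hybridised to 1 array, and both arrays lay on 1 slide, so no difference below has a replicate check and no test was made.

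Amino acids cross membranes through several carrier families. SLC7 light chains reach the cell surface only when bound to a heavy chain, mostly Slc3a2 (CD98), and most of them exchange an amino acid inside the cell for another outside. SLC1 and SLC38 carriers use the sodium gradient to take up glutamate, glutamine and small neutral amino acids. Most SLC36 and SLC15 carriers move amino acids and short peptides with protons, some of them out of lysosomes. SLC6 carriers take up taurine, GABA, glycine, betaine, creatine and monoamines as well as amino acids. The 8 families therefore hold carriers whose substrates are not amino acids.

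A log2 level here is log2 of the background-subtracted intensity relative to the 75th percentile of its own array, and a difference is the granulocyte level minus the monocyte level. Levels of different genes come from different probes and cannot be set against each other. Where a gene failed the background flag on 1 array, its fold is a bound and is introduced by "at least". The labels were checked against markers: all 10 granulocyte markers were at least 2-fold higher in granulocytes, 7 of them by 4-fold or more, and all 10 monocyte markers were lower in granulocytes, 9 of them by 4-fold or more. In monocytes the levels of the granulocyte markers ran from -2.81 (Cxcr2) to 8.70 (S100a9), with Camp at 7.04 and Ltf at 6.89. S100a9 differed least of them, by 1.06. Markers of other cells were not level between the arrays. Of 9 T-cell and NK-cell markers above background 5 were at least 4-fold lower in granulocytes, against 10.5% of all named genes. Summed over the 9, the intensity per 75th percentile was 6.46 in granulocytes and 18.1 in monocytes. Of 8 dendritic cell markers 5 were lower by as much (sums of 10.4 in granulocytes and 42.5 in monocytes). Higher in granulocytes were Cd3d (1.76) and Cd3e (0.44) of the former, and Runx2 (1.83) and Xcr1 (1.20) of the latter. All 8 erythroid markers (sums of 342 in granulocytes and 96.3 in monocytes) and 7 of 8 platelet markers were 2-fold or more higher in granulocytes. So were 7 of 10 eosinophil, basophil and mast cell markers and 5 of 8 B-cell markers, against 29.3% of all named genes. The 75th percentile scaling adds 0.87 to each difference. With it the erythroid differences ran from 1.03 to 1.92 and the B-cell differences or bounds from -0.28 to 1.83. The platelet differences ran from 0.77 to 4.32 (sums of 34.7 in granulocytes and 7.44 in monocytes). Those of the eosinophil, basophil and mast cell markers ran from -0.07 to 5.03 (sums of 351 in granulocytes and 20.1 in monocytes). At 4-fold, 3 of the 8 platelet markers and 2 of these 10 were higher in granulocytes, against 8.63% of all named genes. The sums add the same probes on both arrays and are weighted toward the brightest markers. The part of other cells in the differences below was not tested, nor was that of granulocyte transcripts on the monocyte array.

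Of the 44 transporter genes, 4 stood 4-fold or more higher in granulocytes (9.09%, against 8.63% of all named genes) and 3 stood 4-fold or more lower (6.82%, against 10.5% of all named genes). At 2-fold the counts were 15 (34.1%, against 29.3%) and 7 (15.9%, against 21.1%), and the other 22 genes were less than 2-fold apart. These shares lay near those of all genes. Slc7a11, Slc15a3, Slc6a13 and Slc6a6 were the 4 higher in granulocytes, and Slc7a6, Slc38a1 and Slc43a3 the 3 lower. The direction of these 7 held under every alternative that gave them a value, but scalings that add 1 constant could not have changed it. Slc7a6 has no value where both arrays must be above background. Slc7a11 and Slc38a1 alone also kept to 4-fold under every alternative. The median difference of the 44 genes was 0.60, against 0.41 for all named genes. A level in a sorted population cannot tell fewer cells carrying a transcript from less transcript per cell.

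**Figure D1:**
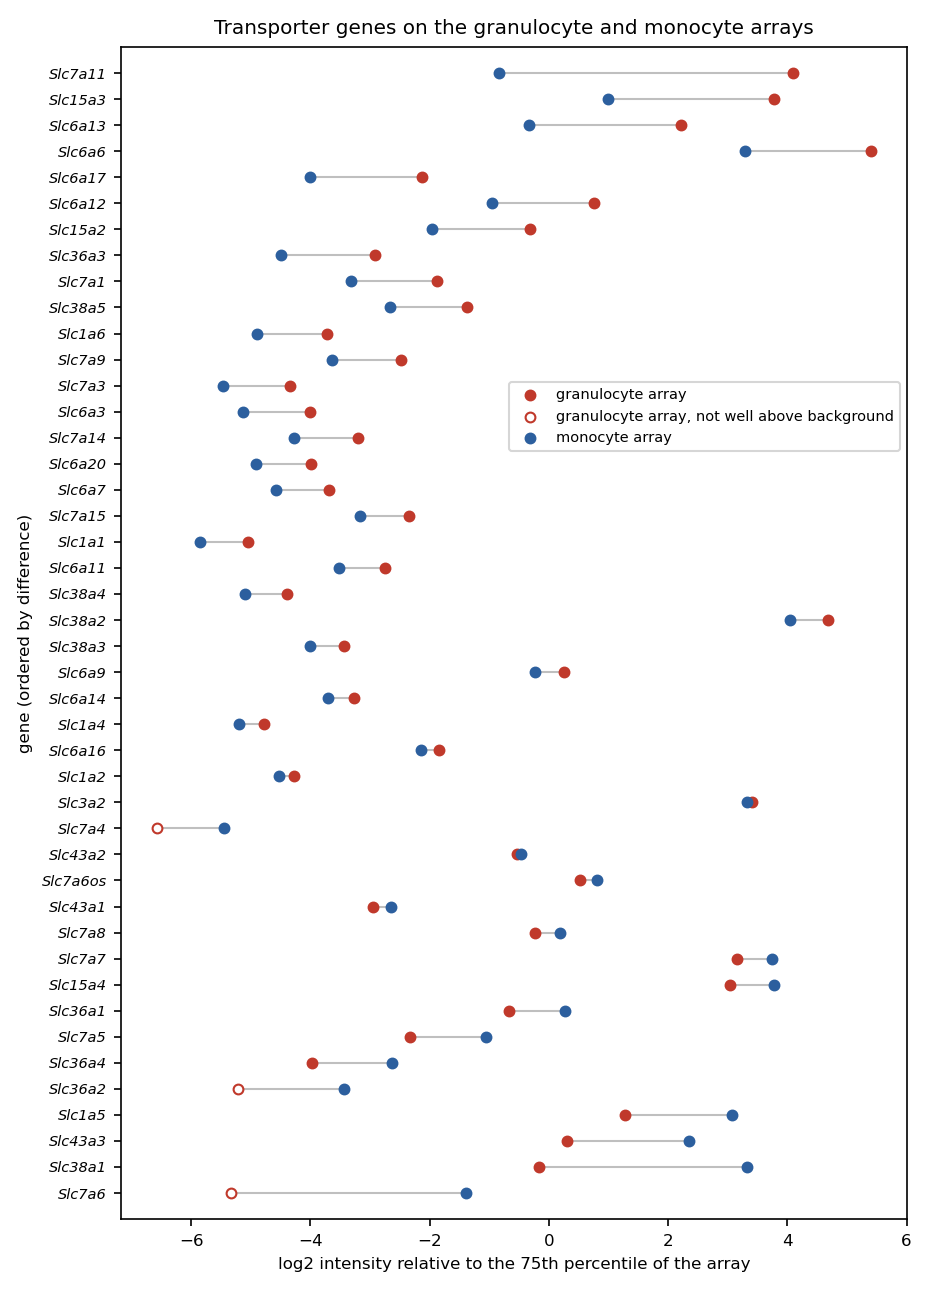
Log2 intensity relative to the 75th percentile of the array (horizontal axis) for the 44 transporter genes, ordered from the highest to the lowest granulocyte minus monocyte difference, with red points for the granulocyte array, blue points for the monocyte array and open points for a signal not well above background. Slc7a11 stands at the top with 4.10 in granulocytes and -0.84 in monocytes, and Slc38a1 near the bottom with -0.16 in granulocytes and 3.32 in monocytes.

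Heavy chain and light chain genes did not differ together. Slc3a2, the common heavy chain, had a level of 3.41 in granulocytes and 3.33 in monocytes, a difference of 0.08 that was -0.37 after quantile normalisation, -0.44 with spike-in scaling and -0.79 without scaling. Its other probe gave 0.46. The other heavy chain, Slc3a1, which serves kidney and gut epithelium, was not well above background on either array. Of 10 light chain genes, 7 were above background, among them Slc7a9, the partner of Slc3a1. The 7 differences ran from 4.94 for Slc7a11 to at least 13.6-fold in the other direction for Slc7a6, with a median of -0.42.

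Slc7a11 encodes xCT, the light chain that imports cystine in exchange for glutamate and so supplies cysteine for glutathione. Its level was 4.10 in granulocytes and -0.84 in monocytes, with intensities of 5819 in granulocytes and 347 in monocytes, a 30.7-fold difference and the largest of the 44 genes. That value comes from the brightest of 4 probes, at chr3:50539059-50539118 on the minus strand of the build mm8, which carries no RefSeq mRNA accession and lies 70.7 kb from the other probes. The 3 probes with a RefSeq mRNA accession, within 6.4 kb of one another from position 50461973 to 50468379, had levels of -0.11, -1.79 and -1.31 in granulocytes and were not well above background in monocytes. They put Slc7a11 at least 60.7-fold, at least 19.0-fold and at least 26.5-fold higher in granulocytes. All 4 probes thus went one way, and the gene stayed past 4-fold under every scaling tried, with 4.07 without scaling as the lowest of the values for the brightest probe.

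The Slc7a11 promoter is shown because amino acid shortage is known to induce this gene through elements bound by ATF4. The 250 bases before its start, from RefSeq on the build GRCm38.p6 at chr3:50443614-50443863 (minus strand), hold 2 matches to TGATGNAA, searched on both strands. They begin 66 and 47 bases before the start, face opposite ways and are in capitals.

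Slc7a11: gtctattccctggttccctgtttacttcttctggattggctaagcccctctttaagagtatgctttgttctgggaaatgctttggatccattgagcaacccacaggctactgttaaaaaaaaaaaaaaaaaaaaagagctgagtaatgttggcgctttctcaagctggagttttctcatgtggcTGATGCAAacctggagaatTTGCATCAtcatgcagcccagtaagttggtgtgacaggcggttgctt

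Windows were found for 33 of the 44 transporter genes, and Slc7a11 and Slc7a7, a light chain less than 2-fold apart between the arrays, were the 2 genes with a match to TGATGNAA (6.06%, against 3.91% of all genes in the table; 3.45% of all 32851 windows of this length). TGACNNNGC, the antioxidant response element, was found in 8 of the 33 genes, not including Slc7a11 (24.2%, against 11.5% of all genes in the table). TTGCNNAA, a C/EBP element, was found in 7 genes, among them Slc7a11 (21.2%, against 10.8%), the ETS core GAGGAA in 8 (24.2%, against 25.9%) and the E-box CACGTG in 7 (21.2%, against 6.86%). Overlaps between motifs were not removed, and a match describes letters in a window and not binding.

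Slc7a6 (y+LAT2), which exchanges arginine for glutamine and leucine, went the other way. Its level was -1.40 in monocytes, while it was not well above background in granulocytes (measured level -5.34), so that it was at least 13.6-fold lower in granulocytes. Another probe gave at least 6.64-fold lower, and the last of its 3 probes was below background on both arrays. After normexp background correction, which shrinks differences of dim probes, the value was -1.24. Slc7a6os, which the naming rule takes in because of its position on the opposite strand and which encodes no transporter, had levels of 0.52 in granulocytes and 0.81 in monocytes. Its probe lies 2.3 kb from the nearest Slc7a6 probe, and the gene differed by -0.29.

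The remaining light chains differed less. Slc7a5 (LAT1), the carrier of leucine and other large neutral amino acids, had levels of -2.33 in granulocytes and -1.05 in monocytes, 2.43-fold lower in granulocytes. After normexp correction its only probe gave -0.70, less than 2-fold. Slc7a7 (y+LAT1), the close relative of Slc7a6, was bright on both arrays, at 3.16 in granulocytes and 3.74 in monocytes. Its difference of -0.58 passed 2-fold after quantile normalisation (-1.03), with spike-in scaling (-1.10) and without scaling (-1.45). Slc7a8 (LAT2) gave -0.23 in granulocytes and 0.19 in monocytes. Of the y+LAT pair, then, Slc7a7 was above background in both cell types and Slc7a6 in monocytes alone. Slc7a9, the partner of Slc3a1, was 2.23-fold higher in granulocytes, at -2.49 in granulocytes and -3.64 in monocytes. Slc7a15 differed by 0.83, and Slc7a10, Slc7a12 and Slc7a13 were below background on both arrays.

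Among the cationic carriers, Slc7a1 (CAT1), the widespread carrier of arginine and lysine, was 2.70-fold higher in granulocytes, with levels of -1.88 in granulocytes and -3.31 in monocytes. Slc7a2, the carrier that macrophages are known to induce together with arginine enzymes, was below background on both arrays. Slc7a3 (-4.34 in granulocytes and -5.47 in monocytes) and Slc7a14 (-3.20 in granulocytes and -4.28 in monocytes) were dim on both and differed by 1.13 and 1.08. Slc7a4 was above background in monocytes alone, at -5.46, too dim to give a fold.

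Of the SLC38 and SLC1 carriers, Slc38a1 and Slc1a5 were 2-fold or more lower in granulocytes, and Slc38a5 and Slc1a6 were 2-fold or more higher. Slc38a1 (SNAT1), a sodium-coupled carrier of glutamine and alanine, had a level of -0.16 in granulocytes and 3.32 in monocytes and was 11.2-fold lower in granulocytes, with intensities of 303.0 in granulocytes and 6221 in monocytes. Its 6 probes, spread over 67.8 kb of chromosome 15, were all well above background on both arrays, and their differences ran from -4.00 to -2.43. Slc1a5 (ASCT2), which exchanges glutamine for other neutral amino acids, was 3.47-fold lower, with 1.27 in granulocytes and 3.07 in monocytes. Slc1a5 passed 4-fold after quantile normalisation (-2.09), with spike-in scaling (-2.31) and without scaling (-2.67).

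Slc38a2 (SNAT2), which amino acid shortage is known to induce, did not follow Slc38a1. Its levels were 4.68 in granulocytes and 4.04 in monocytes, its 4 probes gave differences from 0.17 to 0.84, and without scaling its difference was -0.23. The nearest Slc38a1 and Slc38a2 probes lie 48.6 kb apart. Slc38a5 was 2.46-fold higher in granulocytes, with levels of -1.37 in granulocytes and -2.67 in monocytes. Slc38a3 (0.56) and Slc38a4 (0.71) were dim on both arrays. Of the glutamate carriers of SLC1, Slc1a6 differed by 1.17 (-3.72 in granulocytes and -4.89 in monocytes), and Slc1a1, Slc1a2 and the neutral amino acid carrier Slc1a4 lay between 0.26 and 0.80, while Slc1a3 and Slc1a7 were below background. The Slc1a2 value of 0.26 comes from a probe without a RefSeq mRNA accession, and its other probes above background, one of them with an accession, gave 0.88 and 0.99.

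**Figure D2:**
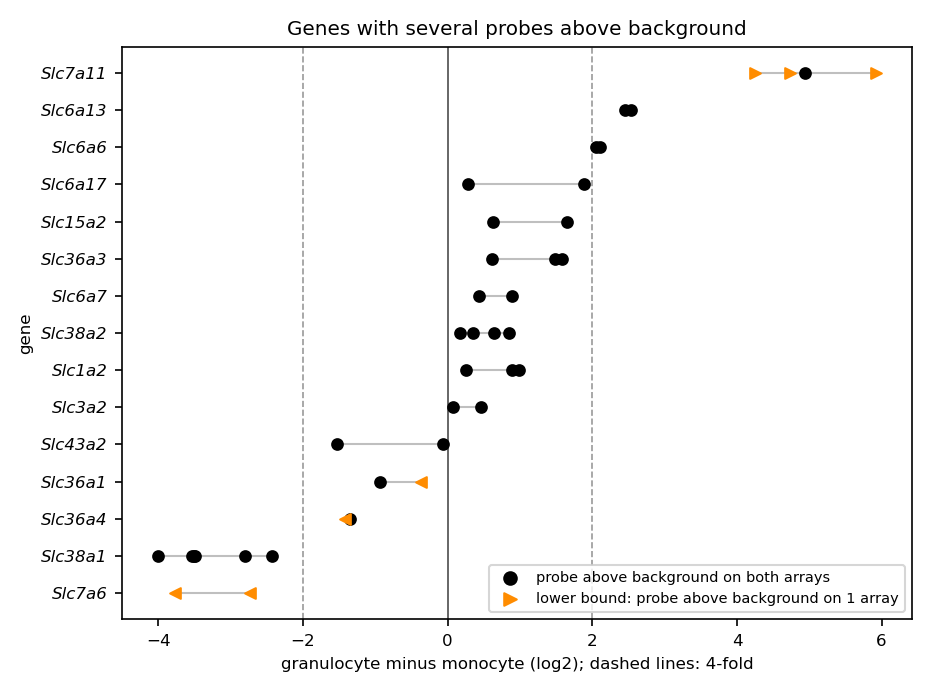
Granulocyte minus monocyte difference on the log2 scale (horizontal axis) of each probe of the 15 transporter genes with at least 2 probes that gave a difference or a bound. Black points are measured differences, orange triangles are lower bounds pointing away from 0, and dashed lines mark 4-fold. All probes of Slc7a11 lie at 4.25 or above and all 6 of Slc38a1 at -2.43 or below, whereas the probes of Slc43a2 lie at -1.53 and -0.06.

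In the SLC6 family, 11 of 19 genes were above background, and all 11 differences were positive under the 75th percentile scaling, whereas Slc6a9, Slc6a11, Slc6a14 and Slc6a16 turned negative without scaling. Under the 75th percentile scaling 59.6% of all named genes and 29 of the 44 transporter genes (65.9%) were positive. Slc6a6, the taurine transporter, had a level of 5.41 in granulocytes and 3.30 in monocytes, 4.33-fold higher in granulocytes. Neutrophils are known to hold much taurine, which reacts with the hypochlorous acid they make. The other Slc6a6 probe gave 2.06, and the brighter probe gave 1.59 after quantile normalisation, 1.60 with spike-in scaling and 1.24 without scaling, below 4-fold in each. Slc6a6 also lay just under 4-fold in the authors' deposited values (1.93) and after normexp correction (1.98). Slc6a13 (GAT2), a carrier of GABA and taurine, was 5.82-fold higher, with 2.21 in granulocytes and -0.33 in monocytes, and its other probe, which overlaps the brighter one, gave 2.45; without scaling it stood at 1.67. Its neighbour Slc6a12, the betaine and GABA carrier whose probe lies 27.9 kb away on chromosome 6, was 3.26-fold higher, with 0.76 in granulocytes and -0.95 in monocytes.

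Slc6a9, the glycine carrier, gave 0.26 in granulocytes and -0.24 in monocytes, and its difference of 0.50 turned to -0.37 without scaling and to -0.02 with spike-in scaling. Slc6a17 gave 1.88 by its brightest probe (-2.12 in granulocytes and -4.00 in monocytes), which the files place over only 17 bases, and 0.28 by another. The dopamine carrier Slc6a3 gave 1.12 (-4.00 in granulocytes and -5.13 in monocytes). The others, Slc6a7, Slc6a11, Slc6a14, Slc6a16 and the gene listed as Slc6a20, whose accession now belongs to Slc6a20b, lay between 0.29 and 0.92. The creatine carrier Slc6a8 and the serotonin carrier Slc6a4 were among the 8 genes below background.

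The peptide and histidine carriers of endosomes and lysosomes also parted. Slc15a3 (PHT2) was 6.87-fold higher in granulocytes, with 3.77 in granulocytes and 0.99 in monocytes, by its only probe, and 1.91 on the log2 scale without scaling. Slc15a4 (PHT1), known for its part in endosomal Toll-like receptor signalling, was bright on both arrays, at 3.04 in granulocytes and 3.77 in monocytes, a difference of -0.73. That difference passed 2-fold after quantile normalisation (-1.17), with spike-in scaling (-1.24) and without scaling (-1.60). Slc15a2 (PEPT2), the peptide carrier of the cell surface, gave -0.32 in granulocytes and -1.96 in monocytes, 3.13-fold higher in granulocytes, with 0.63 by its other probe. The intestinal peptide carrier Slc15a1 was below background.

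Of the SLC36 carriers, Slc36a1, found on lysosomes, gave -0.66 in granulocytes and 0.27 in monocytes. Its difference of -0.93 stayed under 2-fold after quantile normalisation (-0.94) and normexp correction (-0.79). It passed 2-fold in the authors' deposited values (-1.11), with spike-in scaling (-1.45) and without scaling (-1.80). The other Slc36a1 probe, above background in monocytes alone, gave at least 1.29-fold lower in granulocytes. Slc36a4 was 2.55-fold lower in granulocytes (-3.98, against -2.63 in monocytes), and Slc36a2, above background in monocytes alone (-3.44), was at least 3.30-fold lower. After normexp correction Slc36a4 and Slc36a2 gave -0.16 and -0.11. Slc36a3, next to Slc36a2 on chromosome 11, gave 1.58 (-2.91 in granulocytes and -4.49 in monocytes), but 0.61 by another of its 3 probes, and without scaling, where that probe was the brightest, -0.26.

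Slc43a3, known from human cells as a carrier of purine bases rather than of amino acids, was 4.12-fold lower in granulocytes, with 0.31 in granulocytes and 2.35 in monocytes, and lay just under 4-fold after normexp correction. The leucine carriers Slc43a1 and Slc43a2 were less than 2-fold apart, at -0.31 and -0.06. The Slc43a2 value (-0.53 in granulocytes and -0.47 in monocytes) comes from a probe without a RefSeq mRNA accession, and the probe with one gave -1.53.

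Many of the small positive differences belong to dim probes. The 75th percentile was 339.4 intensity units for granulocytes and 620.9 for monocytes, so the scaling adds 0.87 to every difference. Of the 44 genes, 20 had a mean level below -3, and 16 of these were positive with a median of 0.79, which became -0.09 without scaling. Of all 4360 named genes this dim, 2905 (66.6%) were positive, with a median of 0.62 that became -0.25 without scaling. The 31 member probes below background on both arrays had a median difference of 0.81, and all 12052 such probes on the arrays one of 0.83. Slc7a3, with intensities of 16.7 in granulocytes and 14.0 in monocytes, is an example of a gene past 2-fold that differed little before scaling. Without scaling 5 genes, which were Slc7a11, Slc15a3, Slc6a13, Slc6a6 and Slc6a17, stood 2-fold or more higher in granulocytes and 13 stood 2-fold or more lower, against 15 and 7 with it.

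**Figure D3:**
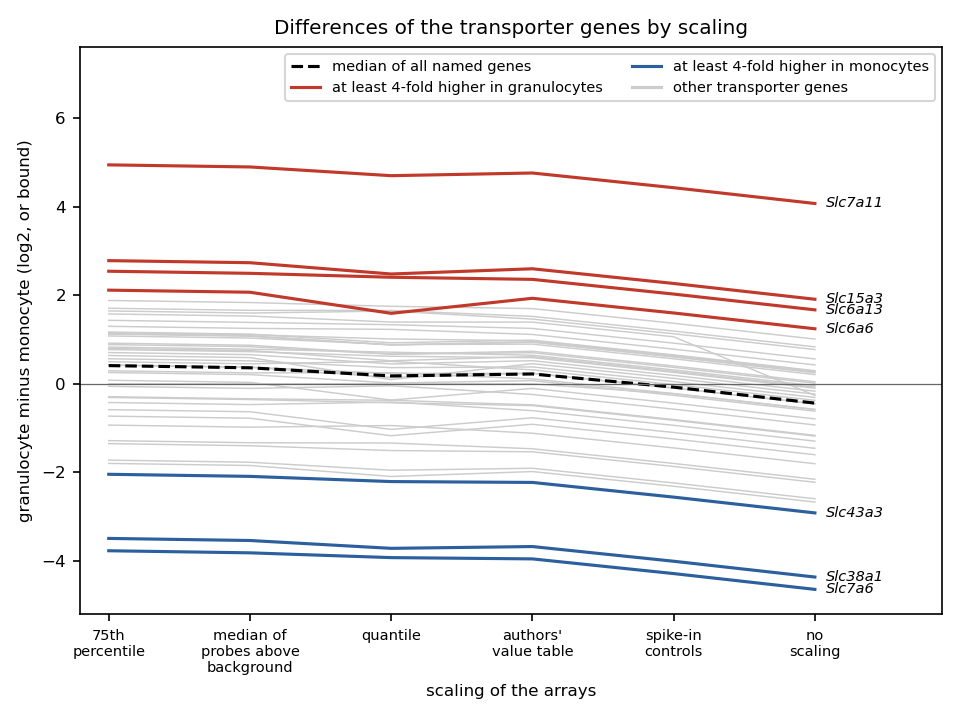
Granulocyte minus monocyte difference or bound on the log2 scale (vertical axis) of the 44 transporter genes under 6 scalings of the arrays (horizontal axis). Red and blue lines are the genes at least 4-fold apart under the 75th percentile scaling, grey lines the other genes, and the dashed line is the median of all named genes, which moves by -0.85 without scaling. The 7 coloured genes keep their sides of 0 throughout, which scalings that add 1 constant could not have changed.

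The 16 genes not counted had levels of at most -5.51 in granulocytes and -5.87 in monocytes. Among them were Slc1a3, Slc1a7, Slc3a1, Slc6a2, Slc6a4, Slc6a5, Slc6a8, Slc6a15, Slc6a18, Slc6a19, Slc7a2, Slc7a10, Slc7a12, Slc7a13 and Slc15a1. Just outside the flag stood Slc6a8, at -5.85 in granulocytes and -5.87 in monocytes, and just inside it Slc1a1, at -5.05 in granulocytes and -5.85 in monocytes, and Slc7a4. Some carriers of these families bear older names in the files and so fall outside the rule. Among them the lysosomal arginine sensor Slc38a9 gave -0.22 by its brightest probe, the lysosomal glutamine carrier Slc38a7 gave 0.04 and Slc38a10 gave 0.19, each less than 2-fold apart.

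Genes that use or sense the carried amino acids were read from lists, whose counts at 4-fold stand against 8.63% higher and 10.5% lower among all named genes. The list of amino acid response genes was built around the factor ATF4 with its targets and partners. Of its 21 genes above background, 5 were higher in granulocytes by 4-fold or more and 6 lower, with a median of -0.20. Chac1, which degrades glutathione, was 12.4-fold higher in granulocytes (2.23, against -1.41 in monocytes), and Trib3, Sesn2, Asns and Ddit4 gave 3.30, 3.25, 2.21 and 2.16. Nupr1, a stress-induced chromatin protein, gave -2.86 in granulocytes and 3.61 in monocytes. The serine synthesis enzymes Psat1 and Phgdh gave -3.98 and -3.47, Shmt2, which makes glycine from serine, gave -3.17, and Ppp1r15a gave -2.56, while Aldh18a1, of proline synthesis, was at least 10.2-fold lower. Atf4 itself differed by 0.31. Trib3, Sesn2, Asns, Ddit4, Shmt2, Ppp1r15a, Aldh18a1 and Atf4 were named after their values were seen.

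On the cystine side, 3 of 11 genes were higher in granulocytes by 4-fold or more and 0 were lower by as much, with a median of 0.80. The gamma-glutamyl transferase family genes Ggt5 and Ggt1, which act on glutathione or its conjugates outside the cell, gave 6.18 and 5.41, and Chac2 gave 2.48. Gclc, the catalytic subunit of the first enzyme of glutathione synthesis, was 3.82-fold lower in granulocytes (-1.15, against 0.79 in monocytes). Gss, also of glutathione synthesis, was 3.45-fold lower, while Gclm, the partner of Gclc, gave 1.70. Gss and Gclm were named after their values were seen.

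Among 20 enzymes of glutamine, arginine, branched-chain amino acids and tryptophan, 2 were higher in granulocytes by 4-fold or more and 4 lower. Arg2, the mitochondrial arginase, was 175.4-fold higher in granulocytes (3.91, against -3.54 in monocytes), and Got1, an aspartate aminotransferase, gave 2.46. Ass1, which rebuilds arginine from citrulline, was 60.8-fold lower in granulocytes (-3.49, against 2.44 in monocytes), and Dbt, of branched-chain breakdown, at least 5.16-fold lower. Arg1 and Nos2, the arginine enzymes of activated macrophages, were below background on both arrays (both chosen after their values were seen). Of 27 genes of mTORC1 amino acid sensing, 2 were higher in granulocytes by 4-fold or more and 2 lower, near the shares of all named genes. The GTPase gene Rragd gave 0.84 in granulocytes and -4.78 in monocytes and Mlst8 gave 2.10, while Nprl3 gave -2.07 and Rragb was at least 4.83-fold lower. Of 13 carriers of other families, the mitochondrial aspartate and glutamate carrier Slc25a13 (-3.37) and the aromatic amino acid carrier Slc16a10 (-2.49) were lower in granulocytes, the vesicular GABA carrier Slc32a1 (2.99) was higher, and Slc25a22 gave -0.89.

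**Figure D4:**
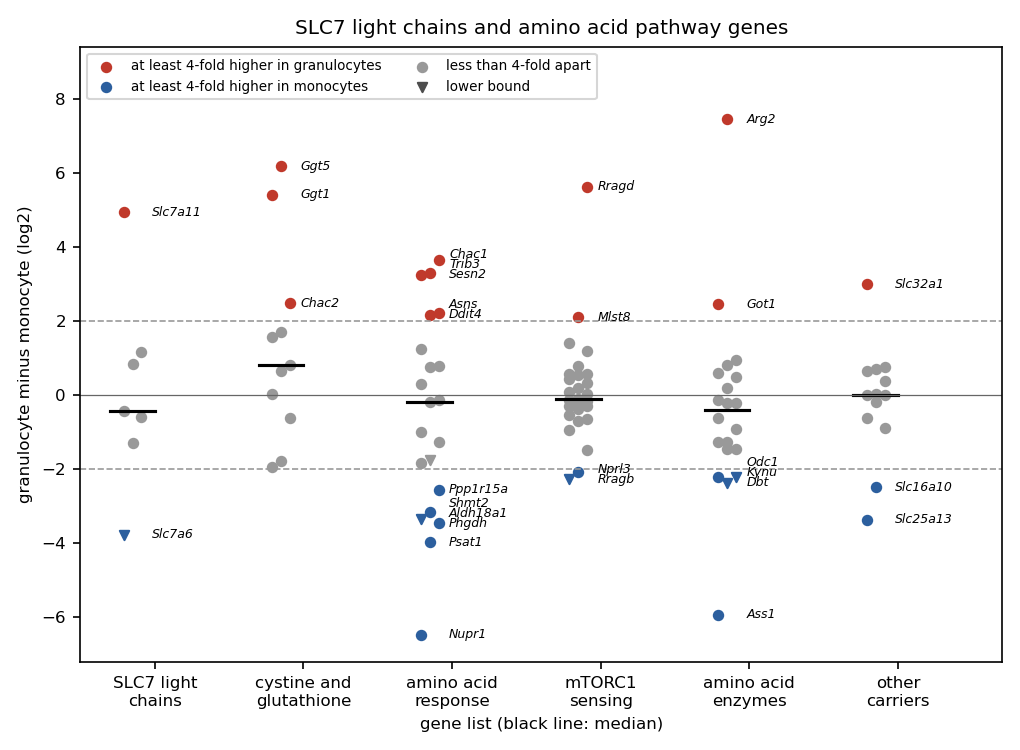
Granulocyte minus monocyte difference on the log2 scale (vertical axis) of genes above background in 6 lists (horizontal axis), with red points at least 4-fold higher in granulocytes, blue points at least 4-fold higher in monocytes, grey points less than 4-fold apart, triangles for lower bounds and a black line at each median. Named genes are those past 4-fold, from Arg2 at 7.45 to Nupr1 at -6.48, and the medians lie between -0.42 and 0.80.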

How the data were processed

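Per the file headers, the authors read 1-colour Cy3 scans with Agilent Feature Extraction 10.5.1.1, whose intensity per spot is background-subtracted, detrended and not normalised between arrays. Control spots and outlier spots were left out (143 on the granulocyte array, 103 on the monocyte array, 0 for these genes), and 0 spots were saturated. Each log2 intensity was taken relative to the array's 75th percentile. A gene took its probe above background on most arrays, then the brightest, and was named through RefSeq (GRCm38.p6). Lower bounds use the dimmest level above background (-5.16 in granulocytes, -6.04 in monocytes). The authors' deposited log2 value table lay within 0.01 of log2 intensity plus a constant, -0.24 (granulocyte) or -0.92 (monocyte), for 99.9% of probes with a single spot (other probes were not compared), and both column medians are 4.80. No source used here tells how its constants were set. Repeated spots had a median SD of 0.07 on each array, and probes of a gene one of 0.23. The number of arrays limits the precision. The calculation was tested on simulated data. Other scalings, normexp (limma 3.58.1, offset 50), other filters, probe rules and sizes were tried. Probes are placed in the build mm8, whose exon annotation was not used here. Genes named are all members, with values for those at least 2-fold apart and the 5 brightest of each array, and up to 4 per other list. Members and lists were chosen with earlier results of these data known. One gene below background is not reported here by name.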

Additional observations from a re-analysis of the deposited data

How the results depend on the processing

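With 1 array per cell type the alternatives show how values move between settings and nothing of the spread between mice. No paired analysis was possible because each cell type has 1 array. Against 4 transporter genes 4-fold or more higher in granulocytes and 3 lower, the counts were 15 and 7 at 2-fold, 1 and 2 at 8-fold, 1 and 7 without scaling, 3 and 5 with spike-in scaling and 3 and 1 after normexp correction. The median of 0.60 became -0.28 without scaling, 0.087 with spike-in scaling and 0.36 with the probe of smallest difference, and the transporter median then stood 0.05 above that of all genes. With no filter on dim probes the medians were 0.63 for the transporter genes and 0.63 for all genes, a difference of -0.0013. Without scaling the median of all named genes moved by -0.85, and the transporter median stayed 0.15 above it, against 0.19. In all genes the counts were 1347 and 1641, against 589 and 3055 without scaling, 797 and 2408 with spike-in scaling and 878 and 908 after normexp correction. The 7 genes at least 4-fold apart kept their direction in all 76 values computed, which scalings that add 1 constant could not have changed. Of the 15 genes at least 2-fold but less than 4-fold apart, Slc36a3 changed sign in 1 value, and 13 of the 22 genes less than 2-fold apart changed sign in at least 1. Spike-in scaling and the restriction to probes with a RefSeq mRNA accession were chosen after seeing the data. Signal near background limits the dim genes, and Slc38a2 and Slc3a2, bright on both arrays, also changed sign without scaling. Slc3a2 was negative too after quantile normalisation (-0.37), with spike-in scaling (-0.44), after normexp correction (-0.03) and in the authors' deposited values (-0.10).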
